A study of Mus musculus with 32 samples.

Results

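The mRNA levels of 10 inflammasome genes were followed in bone marrow-derived macrophages during stimulation with bacterial lipopolysaccharide (LPS). They were the sensors Nlrp3, Nlrp1b, Nlrc4, Naip2, Naip5 and Aim2, the adaptor Pycard, the caspases Casp1 and Casp4, and the pore former Gsdmd. The genes were taken by name from the 25067 genes of the table, each represented by its transcript with the highest mean count, and all 10 were found and expressed above the limit used for testing. Macrophages of wild-type mice (WT) were compared with macrophages of mice lacking the nuclear receptor Nur77, which is encoded by Nr4a1 (KO).

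An inflammasome is a protein complex that a sensor builds in the cytosol when it detects a microbial product or cell damage. NLRP3 responds to many forms of damage and is known to need a first signal such as LPS that raises its level, NAIP5 binds flagellin and NAIP2 the inner rod protein of bacterial secretion systems, and both pass the signal to NLRC4. NLRP1B is activated by bacterial proteases and AIM2 by DNA in the cytosol. Through the adaptor ASC, encoded by Pycard, sensors recruit caspase-1, which matures interleukin-1 beta and interleukin-18 and cuts gasdermin D, the protein of Gsdmd. Caspase-11, encoded by Casp4 in the mouse, binds LPS in the cytosol directly and cuts gasdermin D as well.

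The cells came from male C57Bl6/J mice aged 6 to 12 weeks and were grown for 7 days with L929-conditioned medium. They were left without LPS (0 h) or kept in 100 ng/ml LPS for 1, 5 or 18 h, which gave 8 groups of genotype and time with 4 libraries each. The KO was a whole-body deletion, made by crossing mice with a loxP-flanked Nr4a1 to mice with Cre under the CMV promoter and then breeding the Cre out, and its label gives the genotype as cre, whereas the WT mice were littermates. The number of animals behind the 4 libraries of a group is not stated, so p-values measure the spread between these libraries, which may be technical.

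Levels are given in CPM, a count scaled to the size of its library. Library totals ranged from 8742362 to 15780926 counts. Nr4a1 itself had a mean of 438 CPM in WT and 191 in KO at 1 h, and of 19.8 and 5.26 CPM at 0 h. Reads of the targeted gene were thus fewer but not absent in KO at these times. At 5 h the means were 0.928 CPM in WT and 0.312 in KO, and at 18 h 0.319 and 0.225 CPM. At 18 h the groups overlapped (edgeR quasi-likelihood test, adjusted p = 0.68), so Nr4a1 did not separate the genotypes at that time. All 8 macrophage markers were above 1 CPM in every group, with a summed level between 11016 and 18955 CPM. The summed level of 10 neutrophil markers was between 18.3 and 52.8 CPM, with group means of Ly6g, Mpo and Elane at or below 0.250 CPM. However, 4 of the 10 were above 1 CPM in every group. Their highest group means were 15.6 for S100a8, 13.9 for Ngp, 13.2 for S100a9 and 6.71 CPM for Ltf. The 6 dendritic cell markers summed to between 1.38 and 27.1 CPM, with group means of at most 0.174 CPM for Flt3 and Siglech. In the group where each was highest, Xcr1 had a mean of 14.7, Clec9a of 12.1 and Ccr7 of 4.28 CPM. A pair of libraries stood apart from the rest of their groups over all genes tested, replicate 1 of KO at 5 h and replicate 4 of KO at 18 h, with a root mean square deviation of 0.547 and 0.388 on the log2 scale, against 0.155 to 0.337 in the other 30 libraries.

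On mouse build GRCm38, Nlrp3 (NM_001359638) lies at chr11:59541569-59566955 and Nlrp1b (NM_001040696) at chr11:71152574-71242514. Naip2 (NM_010872, chr13:100144063-100202122) and Naip5 (NM_010870, chr13:100211735-100250930) are neighbours 9613 bases apart, and Casp1 (NM_009807, chr9:5298517-5307281) and Casp4 (NM_007609, chr9:5308849-5336791) are neighbours 1568 bases apart. Nlrc4 (NM_001033367) is at chr17:74426255-74459144, Aim2 (NM_001013779) at chr1:173349547-173466040, Pycard (NM_023258) at chr7:127991373-127993867 and Gsdmd (NM_026960) at chr15:75862144-75867408. Of all 50-base windows of the Naip5 transcript, 36.8% had an exact copy in a transcript of another gene, most often Naip6, and of those of Naip2 19.4%, most often Naip1. Reads of these paralogs may have been split or dropped in counting, so the levels of Naip2 and Naip5 are uncertain in that respect. The share was 2.18% for Nlrp1b and 1.13% or less for each of the other 7 genes. Counting strand is not stated, so reads of overlapping genes on the other strand cannot be told apart.

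Promoters of 9 of the 10 genes were held in the RefSeq table of build GRCm38.p6, each with 250 bases before and 50 after the annotated start, and Gsdmd was not matched. They were searched on both strands for 5 motifs. The NF-kB consensus, the site of the Rel family factors that LPS activates, was found in 8.46% of 32851 mouse promoters, and among the inflammasome genes in the promoters of Nlrp3, Casp4 and Naip5. The core of the interferon response element, GAAANNGAA, was found in 8.56% of promoters and here in that of Naip2. The GAS element TTCNNNGAA (8.30% of promoters), the AP-1 site TGANTCA (7.81%) and the Nur77 response element NBRE, AAAGGTCA (1.51%), were not found in any of the 12 promoters of the 9 genes. These matches are letters in a window and no measurement of binding. Promoters of the genes with the largest early rise in LPS are shown first, with NF-kB consensus matches in capitals. In Nlrp3 the match is in the more upstream of its promoters in the table (chr11:59541319-59541618, plus strand), and Casp4 (chr9:5308599-5308898, plus strand) has 3 matches, of which 2 overlap.
Nlrp3: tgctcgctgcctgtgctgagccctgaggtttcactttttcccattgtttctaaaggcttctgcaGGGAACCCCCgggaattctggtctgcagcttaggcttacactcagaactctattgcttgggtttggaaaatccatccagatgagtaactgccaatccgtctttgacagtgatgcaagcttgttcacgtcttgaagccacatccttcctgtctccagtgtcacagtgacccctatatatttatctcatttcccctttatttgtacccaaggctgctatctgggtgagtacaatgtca
Casp4: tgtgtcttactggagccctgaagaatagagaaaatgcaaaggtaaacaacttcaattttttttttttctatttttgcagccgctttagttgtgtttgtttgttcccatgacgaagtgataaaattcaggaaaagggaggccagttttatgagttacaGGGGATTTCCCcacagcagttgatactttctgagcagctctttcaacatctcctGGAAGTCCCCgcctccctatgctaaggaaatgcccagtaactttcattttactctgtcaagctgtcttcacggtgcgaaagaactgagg
The promoters of the neighbouring paralogs Naip2 (chr13:100202073-100202372, minus strand) and Naip5 (chr13:100247287-100247586, minus strand) are shown because both genes rose late. They were 91.8% identical over an aligned stretch of 134 bases that ends near the 3′ end of both windows. Outside of that stretch lies the NF-kB consensus match of Naip5, and within it lies the interferon response element core of Naip2, on the minus strand of the gene, both in capitals.
Naip2: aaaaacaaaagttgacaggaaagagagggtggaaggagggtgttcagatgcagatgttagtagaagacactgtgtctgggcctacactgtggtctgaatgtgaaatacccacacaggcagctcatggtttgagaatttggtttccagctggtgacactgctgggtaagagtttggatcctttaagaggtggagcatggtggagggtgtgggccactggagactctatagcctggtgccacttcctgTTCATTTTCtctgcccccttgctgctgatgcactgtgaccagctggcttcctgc
Naip5: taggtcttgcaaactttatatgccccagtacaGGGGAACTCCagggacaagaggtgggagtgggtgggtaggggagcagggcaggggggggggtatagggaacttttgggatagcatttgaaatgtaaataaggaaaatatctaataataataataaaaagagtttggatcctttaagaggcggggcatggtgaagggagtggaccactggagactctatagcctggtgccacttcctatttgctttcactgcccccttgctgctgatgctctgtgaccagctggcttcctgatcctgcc

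Levels of different genes were compared per transcript length, as RPKM, the CPM per kilobase. In WT without LPS, Casp1 was the highest of the 10 genes with 68.4 RPKM ± 3.65 (SD, n = 4), followed by Gsdmd with 27.9 ± 1.73 and Nlrp3 with 23.3 ± 0.810. Casp4 (15.8), Naip2 (13.8), Aim2 (11.9) and Pycard (11.1) formed the middle of the order, and Naip5 (6.03), Nlrp1b (5.14) and Nlrc4 (3.57) its end. The libraries of Aim2 and Pycard overlapped, as did those of Naip5 and Nlrp1b, so the order within each of these pairs was not resolved. The length used for Pycard, 3800 bases, is longer than its RefSeq span of 2495 bases, and its RPKM would be at least 1.52 times higher with a transcript no longer than that span. At 1 h of LPS, Nlrp3 was the highest in both genotypes, with 181 RPKM ± 9.09 in WT and 151 ± 12.3 in KO. Casp1 was the highest again at 5 h, with 364 ± 28.1 RPKM in WT and 389.9 ± 103 in KO, and at 18 h, with 439 ± 37.2 and 603 ± 72.9. Casp4 was second at both late times, and its libraries overlapped those of Nlrp3 at 5 h and of Gsdmd at 18 h in WT, and those of Casp1 at 5 h in KO. The lowest places were held by Nlrc4 and Nlrp1b in every group.

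**Figure D1:**
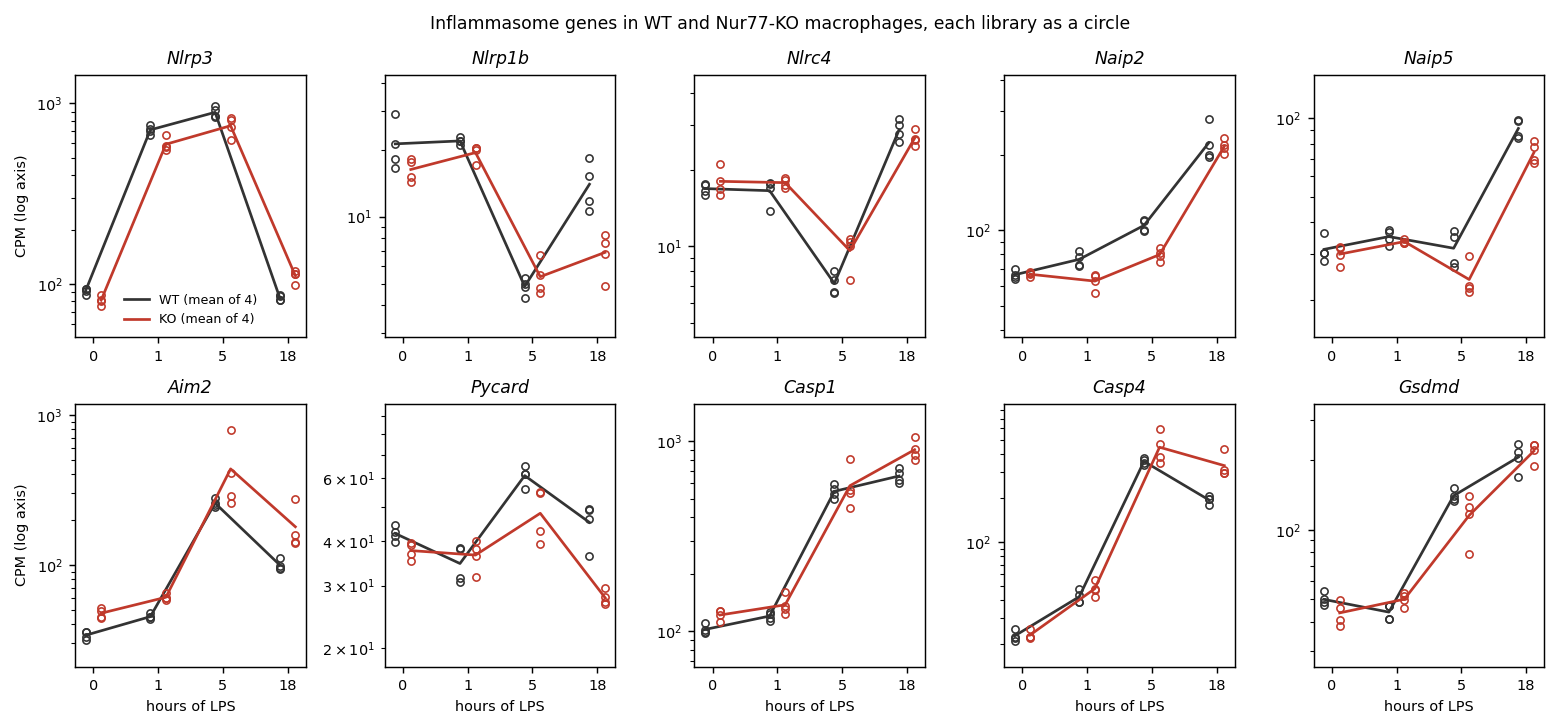
Level of each of the 10 genes in CPM (vertical log axis, a different range in each panel) at 0, 1, 5 and 18 h of LPS, with each library as a circle and the mean of 4 libraries as a line, WT in black and KO in red. Nlrp3 is high at 1 and 5 h and back near its start at 18 h, whereas Naip2, Naip5 and Gsdmd are highest at 18 h.

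The first comparison asked how LPS changed each gene within a genotype. At 1 h in WT, Nlrp3 and Casp4 were the members that changed, so 2 of 10 rose and 0 fell, where 10.1% of the 11187 genes tested rose and 10.2% fell (edgeR quasi-likelihood test, adjusted p under 0.05). In KO the same 2 genes rose and 0 fell, beside 6.90% and 5.39% of all genes. At 5 h, 7 members rose and 2 fell in WT, where 30.1% and 40.1% of all genes did, and 7 rose and 3 fell in KO, beside 32.2% and 39.3%. At 18 h against 0 h, 7 rose and 1 fell in WT, beside 32.4% and 34.0%, and 8 rose and 2 fell in KO, beside 33.9% and 35.7%. The median log2 fold change of the 10 genes was 1.07 at 5 h and 1.55 at 18 h in WT, whereas the median of all genes tested was -0.14 and -0.0041. From 5 to 18 h, 6 members rose and 4 fell in WT, beside 36.1% and 33.4%, and 5 rose and 4 fell in KO, beside 35.1% and 34.2%.

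Nlrp3 rose at once and did not stay high. Its WT libraries held 91.0, 87.2, 94.0 and 93.8 CPM at 0 h and 757, 723, 672 and 703 CPM at 1 h, a log2 fold change of 2.96 ± 0.08 (SE, adjusted p = 5e-23). They reached 837, 914, 964 and 856 CPM at 5 h, and were at 81.1, 85.9, 81.1 and 86.5 CPM at 18 h. The groups at 1 and 5 h lay far above those at 0 and 18 h without overlap, and the fall from 5 to 18 h was -3.42 ± 0.09 on the log2 scale (adjusted p = 2.6e-24). At 18 h all 4 WT libraries were below those at 0 h, but the difference of -0.13 ± 0.08 did not pass the test (adjusted p = 0.15). In KO, by contrast, the level at 18 h was still 0.45 ± 0.08 above that at 0 h (adjusted p = 8.7e-06).

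Aim2, the DNA sensor, followed later. The WT libraries were at 35.5, 35.5, 31.4 and 33.1 CPM at 0 h and at 43.5, 47.3, 44.9 and 44.7 CPM at 1 h, which did not overlap, although the difference of 0.41 ± 0.22 did not pass the test (adjusted p = 0.20). With a spread estimated from these 2 groups alone, the adjusted p was 2.3e-04. They rose to 249, 242, 258 and 280.2 CPM at 5 h, by 2.93 ± 0.23 against 0 h (adjusted p = 1.5e-12), and were down to 98.3, 94.4, 111 and 94.0 CPM at 18 h. That last level was in between, 1.37 below the one at 5 h and 1.55 ± 0.22 above the one at 0 h on the log2 scale (adjusted p = 4.1e-07). In KO the rise to 5 h was 3.19 ± 0.23 (adjusted p = 2.2e-13).

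Nlrc4 and its partners Naip2 and Naip5 did not move together at 5 h. Nlrc4 fell in WT from 17.6, 16.6, 15.9 and 17.4 CPM at 0 h to 7.36, 6.58, 6.63 and 8.01 CPM at 5 h, by 1.24 ± 0.11 on the log2 scale (adjusted p = 4.5e-11). At the same time Naip2 rose from 63.9, 64.9, 70.0 and 66.4 CPM to 99.1, 99.9, 109 and 110.1 CPM, by 0.66 ± 0.08 (adjusted p = 5e-08). Naip5 was between 28.4 and 36.3 CPM at 0 h and between 26.9 and 37.0 CPM at 5 h, so its groups overlapped. At 18 h all 3 genes were above their start. Nlrc4 had then risen to 31.6, 27.6, 30.1 and 25.7 CPM, Naip2 to 199, 219, 279 and 197 CPM and Naip5 to 98.4, 84.2, 85.7 and 98.0 CPM, which was 0.77 ± 0.10, 1.75 ± 0.09 and 1.55 ± 0.10 above 0 h on the log2 scale (adjusted p = 6.7e-08, 1.5e-17 and 3e-14). In KO, Nlrc4 likewise fell at 5 h, by 0.90 ± 0.11, and Naip5 fell by 0.33 ± 0.11 (adjusted p = 0.0077), with an adjusted p of 0.10 for Naip5 when the spread came from these 2 groups alone.

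Nlrp1b was the sensor that LPS lowered at both late times. Its WT libraries were at 29.0, 18.3, 21.1 and 16.6 CPM at 0 h, at 4.30, 5.00, 5.31 and 4.83 CPM at 5 h and at 15.3, 11.8, 10.6 and 18.3 CPM at 18 h. The fall to 5 h was -2.12 ± 0.18 (adjusted p = 1.2e-11) and left no overlap. The level at 18 h overlapped with that at 0 h and was -0.60 ± 0.16 from it (adjusted p = 0.0015). In KO, recovery from 5 to 18 h was 0.36 ± 0.19 (adjusted p = 0.092), whereas in WT it was 1.52 ± 0.19 (adjusted p = 2.8e-08).

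Pycard moved little. In WT its libraries held 39.7, 41.5, 42.5 and 44.5 CPM at 0 h, 61.6, 64.8, 61.9 and 56.1 CPM at 5 h and 49.4, 48.9, 36.2 and 46.1 CPM at 18 h. The rise at 5 h was 0.54 ± 0.10 (adjusted p = 3.2e-05), and at 18 h the difference from 0 h was 0.10 ± 0.10 (adjusted p = 0.39). In KO the adaptor fell below its start at 18 h, by 0.44 ± 0.11 on the log2 scale (adjusted p = 5.1e-04).

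Both caspases and the pore former rose and stayed up. Casp4 had the largest rise of the 10 genes at 5 h, from 25.4, 21.1, 22.0 and 22.4 CPM at 0 h to 349, 364, 338 and 377 CPM in WT, a log2 fold change of 3.97 ± 0.14 (adjusted p = 3.8e-21). At 1 h it was already at 47.8, 43.2, 38.8 and 39.1 CPM, and at 18 h it had come down to 198, 205, 197 and 179 CPM. Casp1 had a high start of 110.1, 99.1, 102 and 98.0 CPM and rose to 559, 529.6, 497 and 596 CPM at 5 h, by 2.41 ± 0.12 (adjusted p = 3.7e-17). Casp4 had the steeper rise and Casp1 the higher mean CPM and mean RPKM in each group. From 5 to 18 h Casp1 in WT rose by a further 0.27 ± 0.12 (adjusted p = 0.043). This call was kept in only 7 of 17 alternative fits. It was lost with DESeq2 (adjusted p = 0.11) and without replicate 3 of WT at 5 h (adjusted p = 0.12), among others. Gsdmd rose from between 47.0 and 54.2 CPM at 0 h to 140.2, 136, 133 and 152 CPM at 5 h and to 217, 205, 169 and 234 CPM at 18 h, by 1.49 ± 0.12 and 2.05 ± 0.12 on the log2 scale (adjusted p = 3.3e-12 and 2.7e-15).

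**Figure D2:**
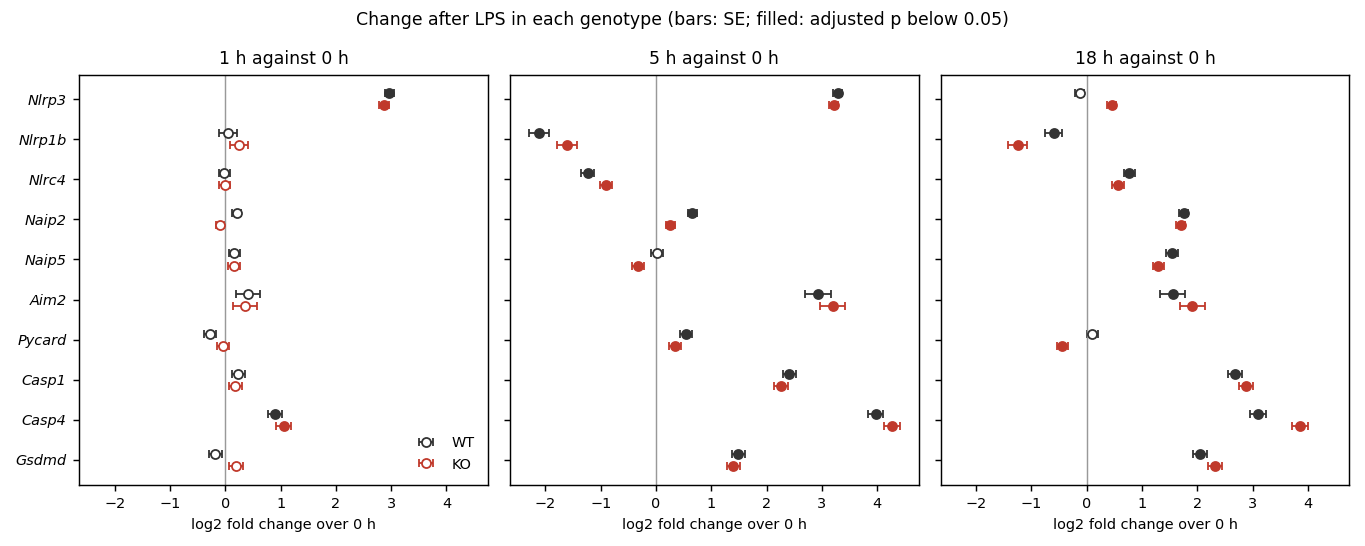
Log2 fold change of each gene at 1, 5 and 18 h of LPS over 0 h (horizontal axis, bars for the SE), WT in black and KO in red, filled where the adjusted p was below 0.05. Both genotypes lie close together for most genes, and at 18 h Nlrp3 and Pycard are on opposite sides of 0 in WT and KO.

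The second comparison asked whether the lack of Nur77 changed the level of each gene at a given time. Without LPS, 0 members were higher and 0 lower in KO by the edgeR test, where 6.33% and 6.34% of all genes were. At an unadjusted p under 0.05 there were 4, and DESeq2 called 0, with no share of all genes computed for either. The median log2 fold change of the 10 genes was -0.03, as was that of all genes. Even so, Aim2 held 44.4, 49.4, 51.3 and 44.9 CPM in KO against 35.5, 35.5, 31.4 and 33.1 CPM in WT, and Casp1 held 127, 122, 128 and 112 CPM against 110.1, 99.1, 102 and 98.0 CPM. Neither gene's groups overlapped, with differences of 0.49 ± 0.22 for Aim2 (adjusted p = 0.16) and 0.25 ± 0.12 for Casp1 (adjusted p = 0.17). Nlrp3 (-0.17 ± 0.08, adjusted p = 0.16) and Pycard (-0.16 ± 0.10, adjusted p = 0.33) were lower in KO, also without overlap. The share of all genes without overlap was not computed. The spread in this fit is shared by all 32 libraries. Without the 2 libraries that stood apart the adjusted p was 4.6e-04 for Aim2 and 0.022 for Casp1, with nearly unchanged differences of 0.49 and 0.25. Leaving these 2 out was chosen after seeing the data, and both had high levels of Aim2 and Casp1 for their group.

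At 1 h, 0 members were higher and 2 lower in KO, where 3.48% and 3.06% of all genes were. The KO libraries held 664, 555, 571 and 584 CPM of Nlrp3, all below the lowest WT library of 672 CPM, and the difference was -0.27 ± 0.08 (adjusted p = 0.032). Naip2 was at 56.0, 66.1, 65.7 and 62.6 CPM in KO and at 82.8, 78.3, 72.0 and 72.9 CPM in WT, a difference of -0.29 ± 0.08 (adjusted p = 0.034). Both differences are small and close to the limit. The adjusted p exceeded 0.05 in 6 of 8 fits for Nlrp3 and in 4 of 8 for Naip2 when 1 library was left out, reaching 0.13 without replicate 2 and 0.14 without replicate 1 of KO. Neutrophil markers summed to between 28.5 and 38.4 CPM in WT and between 44.3 and 52.8 CPM in KO at this time, and their part in these values was not tested.

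At 5 h, 2 members were higher and 4 lower in KO, beside 13.7% and 10.7% of all genes. Naip2 had the firmest difference, with 78.9, 81.2, 84.8 and 74.6 CPM in KO below all of the WT libraries, which started at 99.1 CPM, and a log2 fold change of -0.39 ± 0.08 (adjusted p = 0.0016). It was the only call of the 6 that stayed when the spread was estimated from the 2 groups at 5 h alone. Its paralog Naip5 was at 21.6, 22.3, 22.6 and 29.6 CPM in KO and at 34.9, 26.9, 27.9 and 37.0 CPM in WT, a difference of -0.40 ± 0.11 (adjusted p = 0.0091) with overlapping groups. Nlrc4 went the other way, with 7.37, 10.0, 10.7 and 10.4 CPM in KO against 6.58 to 8.01 CPM in WT, a difference of 0.43 ± 0.12 (adjusted p = 0.011). So Nlrc4 was called higher and Naip2 and Naip5 lower in KO at the time when Nlrc4 was lowest. The groups of Nlrc4 and Naip5 overlapped. With the spread from the 2 groups at 5 h alone, both had an adjusted p of 0.17.

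Nlrp3 was again slightly lower in KO at 5 h, at 626, 744, 827 and 812 CPM, all below the lowest WT library of 837 CPM (difference -0.25 ± 0.08, adjusted p = 0.022). Pycard was at 39.2, 42.8, 54.9 and 54.6 CPM against 56.1 to 64.8 CPM in WT (difference -0.35 ± 0.10, adjusted p = 0.016). Without replicate 1 of KO the adjusted p was 0.12 for Nlrp3 and 0.081 for Pycard. Aim2 was called higher in KO, by 0.76 ± 0.21 (adjusted p = 0.012), but its 4 KO libraries held 789, 406, 257 and 289 CPM and overlapped with the WT libraries of 242 to 280.2 CPM. Without replicate 1 of KO the Aim2 difference was 0.30 with an adjusted p of 0.20. Casp4 (0.32 ± 0.12, adjusted p = 0.055), Casp1 (0.10 ± 0.12, adjusted p = 0.55) and Gsdmd (-0.28 ± 0.12, adjusted p = 0.080) did not pass the test, and DESeq2 gave 0.041 for Casp4. At 5 h the macrophage markers summed to between 16522 and 17941 CPM in WT and between 13214 and 16067 CPM in KO, and their part in these differences was not tested.

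Replicate 1 of KO at 5 h was above the range of the other 3 KO libraries for 4 members and below it for 5. Its levels of Casp1, 803 CPM, and Casp4, 591 CPM, were above the others, which were between 444 and 554 CPM and between 346 and 466 CPM. Its Gsdmd level of 78.5 CPM was below the others, which started at 117 CPM. Replicate 4 of KO at 18 h was in the same way above the range of the other 3 for Aim2, Casp1, Casp4 and Nlrp1b and below it for Nlrp3, Naip2 and Gsdmd. Both libraries thus had more Aim2, Casp1, Casp4 and Nlrp1b and less Nlrp3 and Gsdmd than the rest of their group. They also stood apart over all genes tested, and the shares of all genes outside these ranges were not computed.

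**Figure D3:**
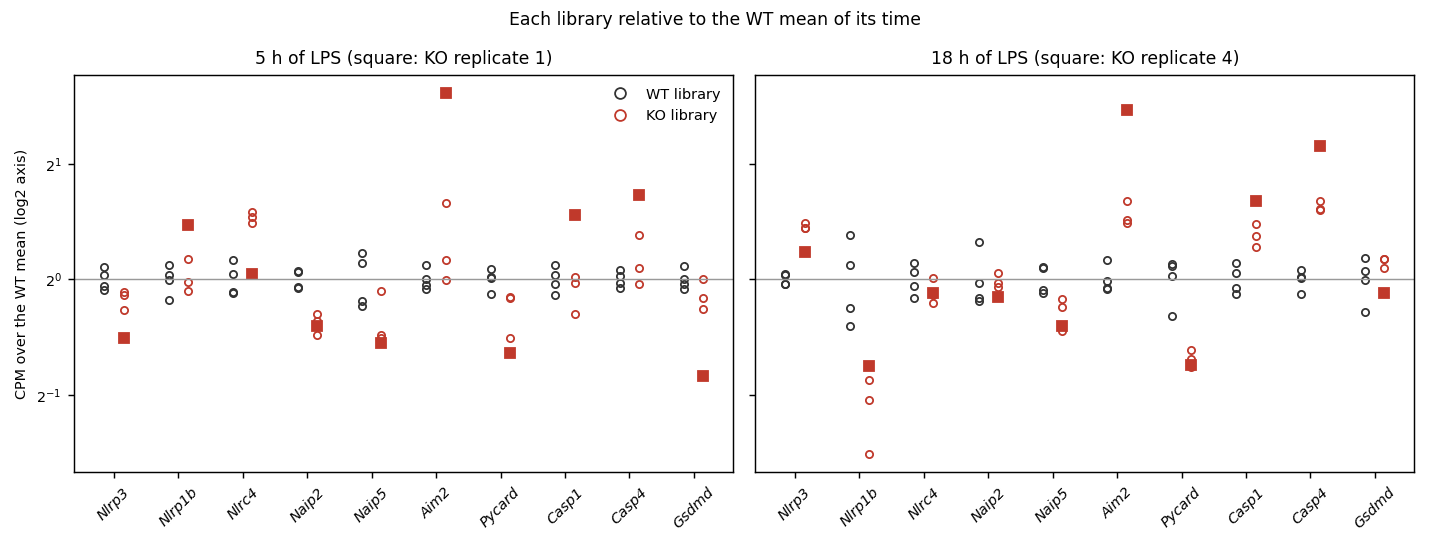
Level of each gene in every library at 5 and 18 h, divided by the WT mean of that time (vertical log2 axis), WT libraries as black circles, KO libraries as red circles and the KO library that stood apart as a red square. At 5 h the square for Aim2 is far above the other KO libraries, whereas at 18 h all KO libraries of Aim2, Casp1, Casp4 and Nlrp3 lie above those of WT.

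At 18 h, 4 members were higher and 3 lower in KO, beside 11.7% and 9.94% of all genes. The median of the 10 differences was 0.02, and that of all genes -0.01. Higher were the caspases Casp4 and Casp1 and the sensors Nlrp3 and Aim2, and lower were the sensors Nlrp1b and Naip5 and the adaptor Pycard. Casp4 held 311, 297, 295 and 432 CPM in KO against 198, 205, 197 and 179 CPM in WT, a log2 fold change of 0.78 ± 0.12 (adjusted p = 1.8e-05). Casp1 held 913, 849.5, 798 and 1051 CPM against 623, 680.3, 723 and 600.5 CPM (0.46 ± 0.12, adjusted p = 0.0043). In neither gene did the groups overlap, and both calls were kept whichever library was left out.

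Nlrp3 at 18 h was at 117, 114, 114 and 98.4 CPM in KO, all above the highest WT library of 86.5 CPM (0.41 ± 0.08, adjusted p = 2.4e-04). The sign was thus the opposite of that at 1 and 5 h, when Nlrp3 was lower in KO. Aim2 held 159, 139.6, 142 and 276 CPM against 94.0 to 111 CPM in WT, a difference of 0.85 ± 0.22 (adjusted p = 0.0043). Without replicate 4 of KO it was 0.56 with an adjusted p of 0.051. Without both libraries that stood apart, an exclusion chosen after seeing the data, it was 0.56 with an adjusted p of 4.6e-05. At each of 0, 1 and 18 h the lowest KO library of Aim2 was above the highest WT library, with 58.5 to 65.1 CPM in KO and 43.5 to 47.3 CPM in WT at 1 h.

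Pycard was lower in KO at 18 h, at 29.5, 26.7, 28.0 and 27.0 CPM, against 49.4, 48.9, 36.2 and 46.1 CPM in WT. This difference of -0.70 ± 0.11 (adjusted p = 7.3e-06) left no overlap. Nlrp1b was at 6.79, 7.65, 4.89 and 8.31 CPM in KO and at 15.3, 11.8, 10.6 and 18.3 CPM in WT, and with -1.03 ± 0.17 it had the largest difference of the 10 genes between genotypes (adjusted p = 4e-05). Naip5 was at 77.8, 81.6, 67.2 and 69.3 CPM in KO, below the lowest WT library of 84.2 CPM (-0.31 ± 0.10, adjusted p = 0.024), a call that was lost in 4 of 8 fits without 1 library, up to an adjusted p of 0.091 without replicate 1 of WT. Gsdmd (0.09 ± 0.12, adjusted p = 0.64), Naip2 (-0.05 ± 0.08, 0.73) and Nlrc4 (-0.11 ± 0.10, 0.47) overlapped between genotypes. At the latest time the mRNAs of both caspases were thus higher in KO, whereas that of the pore former they cut did not pass the test.

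Marker levels differed at 18 h too. The dendritic cell markers, of which 3 of 6 were above 1 CPM, summed to between 6.73 and 8.25 CPM in WT and between 19.0 and 24.0 CPM in KO, and the macrophage markers to between 14035 and 14691 CPM in WT and between 11016 and 12657 CPM in KO. Their part in the differences at 18 h was not tested. In bulk RNA, a change in the share of a cell type and a change of RNA per cell cannot be told apart.

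**Figure D4:**
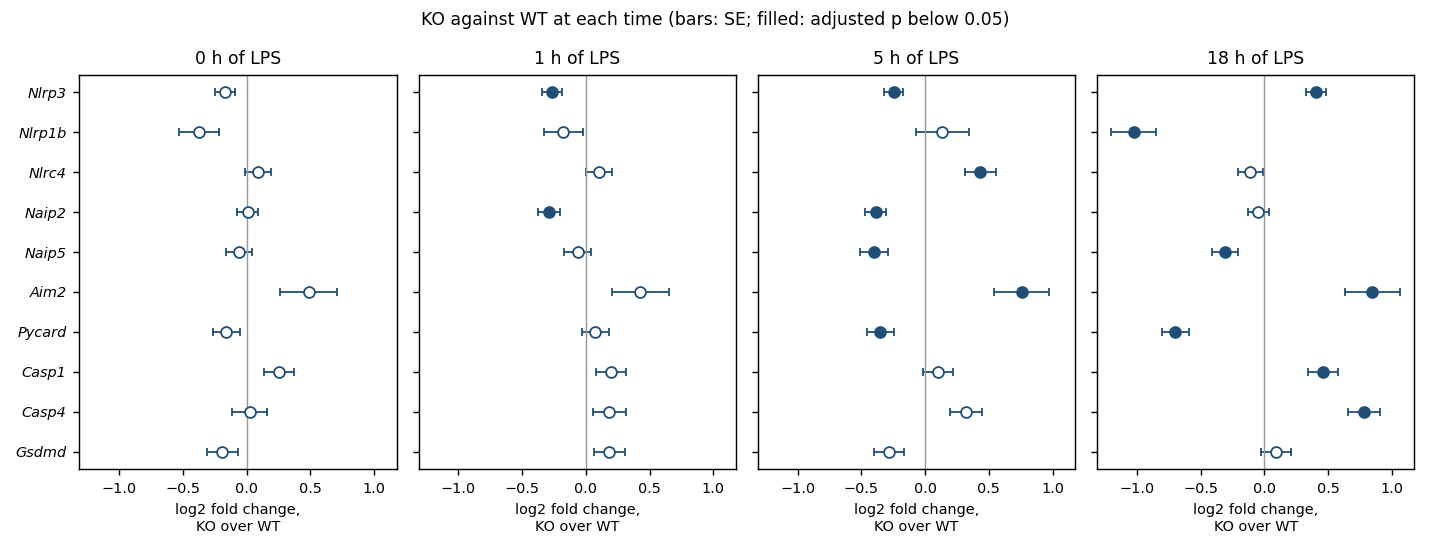
Log2 fold change of KO over WT for each gene at 0, 1, 5 and 18 h of LPS (horizontal axis, bars for the SE), filled where the adjusted p was below 0.05. Nlrp3 changes from the left of 0 at 1 and 5 h to the right at 18 h, Aim2 is to the right at every time, and Pycard and Nlrp1b are far to the left at 18 h.

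The third comparison tested whether the change from 0 h itself differed between genotypes, by an interaction contrast. At 1 h 0 members had a larger and 0 a smaller change in KO, beside 0.0447% and 0.0268% of all genes, and at 5 h again 0 and 0, beside 1.74% and 1.38%. No share of all genes was computed at an unadjusted p or with DESeq2. At an unadjusted p under 0.05 there were 2 members at 1 h and 3 at 5 h, and DESeq2 called 0 and 1. The latter was Naip2, with an interaction of -0.40 ± 0.12 and an adjusted p of 0.068 by edgeR and 0.025 by DESeq2. At 18 h, 2 members were higher and 1 lower, beside 5.37% and 4.07% of all genes. These were Nlrp3 with an interaction of 0.58 ± 0.11 (adjusted p = 5.7e-04), Casp4 with 0.76 ± 0.18 (adjusted p = 0.0059) and Pycard with -0.54 ± 0.15 (adjusted p = 0.015). All 3 calls were kept in the 25 alternative fits. For Aim2 and Casp1, which were also higher in KO at 18 h, the interaction was 0.36 ± 0.31 (adjusted p = 0.58) and 0.20 ± 0.17 (adjusted p = 0.55). For Nlrp1b it was -0.65 ± 0.23 (adjusted p = 0.080). Without the 2 libraries that stood apart, an exclusion chosen after seeing the data, the adjusted p was 0.021.

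Of 35 further genes of the pathway, 32 were expressed above the limit, and Nlrp6, Nlrp12 and Trim31 were not. In KO against WT, at 0 h 1 of the 32 was higher and 9 lower. At 1 h these numbers were 1 and 5, at 5 h 6 and 5, and at 18 h 10 and 6, beside the shares of all genes given above. The medians of the 32 were -0.07, -0.15, 0.03 and 0.16 on the log2 scale. At 18 h all 3 cytokines were higher, namely Il1a (2.21 ± 0.13, adjusted p = 8e-14), Il1b (1.30 ± 0.14, 1.1e-08) and Il18 (0.98 ± 0.15, 1.1e-05). Il1b had been lower in KO at 0 h (-0.68 ± 0.21, adjusted p = 0.032) and 1 h (-0.56 ± 0.13, adjusted p = 0.0063), whereas Il1a was higher in KO already at 0 h (0.66 ± 0.20, adjusted p = 0.028) and 5 h (0.73 ± 0.12, adjusted p = 9.5e-05). The proteins of Il1b and Il18 are substrates of caspase-1.

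Of the 4 genes listed for LPS sensing in the cytosol (Gbp2, Gbp3, Irgb10 and Casp12), 3 were higher in KO at 18 h and 0 lower, beside 11.7% and 9.94% of all genes. At 0 h 0 were higher and 2 lower, namely Gbp2 (-1.48 ± 0.27, adjusted p = 2.5e-04) and Irgb10 (-0.67 ± 0.13, adjusted p = 0.001), beside 6.33% and 6.34%, and at 1 and 5 h 0 were called. Gbp5, a guanylate-binding protein tied to NLRP3 assembly, was lower in KO before LPS, with 4.11 to 5.27 CPM against 9.49 to 16.2 CPM in WT (-1.48 ± 0.23, adjusted p = 3.1e-05). At 18 h it was higher in KO, with 2466 to 3215 CPM against 1041 to 1258 CPM (1.23 ± 0.18, adjusted p = 4.6e-06). Zbp1, a sensor of Z-form nucleic acids, was lower in KO at 0 h (-0.90 ± 0.13, adjusted p = 9.8e-06) and not called at 18 h (0.21 ± 0.10, adjusted p = 0.14). Cflar, an inhibitor of caspase-8, was higher at 18 h (0.74 ± 0.11, adjusted p = 6.7e-06), as was the sensor family member Nlrp10 (1.25 ± 0.20, adjusted p = 1.6e-05). P2rx7, the ATP-gated channel whose opening activates NLRP3, was higher in KO at 5 h (0.54 ± 0.07, adjusted p = 3.7e-06) and lower at 18 h (-0.39 ± 0.07, adjusted p = 6.7e-05). Txnip, reported to bind NLRP3, was higher in KO at 1 h (0.44 ± 0.10, adjusted p = 0.0053) and lower at 5 h (-0.31 ± 0.10, adjusted p = 0.028) and 18 h (-0.90 ± 0.10, adjusted p = 5.9e-08).

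Of 8 inhibitors, 1 was higher and 3 were lower in KO at 18 h, beside 11.7% and 9.94% of all genes. Pydc3 and Pydc4, listed in the table as Ifi208 and Ifi213 and counted here among the inhibitors, were lower in KO at all 4 times. Their action on ASC was not tested. At 18 h Pydc3 held between 67.8 and 107 CPM in KO and between 311 and 376 CPM in WT (-2.07 ± 0.15, adjusted p = 1e-11), and Pydc4 between 23.6 and 42.4 CPM and between 255 and 294 CPM (-3.17 ± 0.22, adjusted p = 1.6e-11). Without LPS, Pydc4 had at most 1 count in a KO library and 28 to 64 counts in a WT library. On chromosome 1 they lie 208 kb (Pydc3) and 100.2 kb (Pydc4) from Aim2, which was called higher in KO at 5 and 18 h. As given above, the Aim2 call at 5 h was lost without replicate 1 of KO, and that at 18 h without replicate 4 alone. Pydc3 and Pydc4 belong to a family of close relatives, so reads may have been split between them.

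Each gene was last set beside the genes outside the list whose log2 CPM followed it most closely over the 32 libraries, as a description by Pearson r. By rank correlation other genes come first for 8 of the 10 (not for Pycard and Gsdmd), such as Sdc4 for Nlrp3 (Spearman rho = 0.964), for which Il1bos was at rank 85. These libraries share their groups, so the correlation mostly reflects the 8 group means. By Pearson r, Nlrp3 was closest to Il1bos, a transcript antisense to Il1b (Pearson r = 0.982), and to Rel, a subunit of NF-kB (0.978), and Casp4 to Peli1 (0.991) and the interferon-induced Ifit1 (0.991). Gsdmd was closest to Uba7 (0.994), the enzyme that activates ISG15, and to the immunoproteasome subunit gene Psmb8 (0.992), and Casp1 to Stxbp3 and Phf11d (both 0.993). For Aim2 they were Tlk2 (0.986) and Max (0.985), for Naip2 Gpr141 (0.981) and Tbc1d9 (0.978), and for Naip5 Acss2 (0.974) and Msrb1 (0.969). Nlrc4 was closest to Pde4dip (0.968) and Mink1 (0.966), and Nlrp1b to Ypel3 (0.957) and Usp48 (0.955). Pycard had the least close partners, Agpat4 (0.857) and Slc12a7 (0.850). Without strand, reads of Il1bos and Il1b cannot be told apart. Between the members, Naip2 and Naip5 had a Pearson r of 0.876, and Aim2 and Nlrp1b one of -0.891. Naip2 was as close to Gsdmd (0.877), and Casp1 and Casp4 were closer to each other (0.952).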

How the data were processed

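RNA was measured by sequencing of strand-specific poly(A) libraries (KAPA mRNA HyperPrep) from 32 samples, 4 in each of 8 groups taken from the sample labels. The authors aligned reads to build mm10 with HISAT2 2.1.0 after base calling with CASAVA 1.8.2, kept reads with a mapping quality above 15 and counted them per RefSeq transcript with HOMER without normalisation. The deposited table holds these estimated counts for 42361 transcripts, of which 28.6% of values are not whole, and they were rounded. It contains 93 transcripts without a gene symbol (0.233 to 1.37% of counts), which were left out. The median library total was 11847140 counts.

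Symbols and lengths came from RefSeq and GENCODE vM21 tables. A gene was represented by its most counted transcript on average. Those whose group mean exceeded 1 RPKM in any group (11187) were tested with edgeR 4.0.16 (R 4.3.3): TMM scaling, 1 model with a mean for each group, the quasi-likelihood F-test and Benjamini-Hochberg adjustment over all genes tested. A gene was called at an adjusted p under 0.05. CPM and RPKM were computed from TMM-scaled library sizes, the SE from the fold change and its F value, and correlations from log2 CPM with a prior count of 2. The procedure was tested on simulated data. Promoters of the 2 Naip genes were aligned with Biopython (local alignment). Alternatives were DESeq2 1.42.0, its size factors, other filters, summed transcripts, a replicate block, fits of only the groups compared, a size limit on the log2 fold change, and leaving out libraries. The members, the list of 35 pathway genes and the marker lists were chosen with earlier results of these data known. All 10 members were named in every group, and of the pathway genes the 12 with the smallest adjusted p between genotypes at any time, of which 1 is not reported here.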

Additional observations from a re-analysis of the deposited data

Results flagged for a closer look

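In 80 groups of 4 libraries (10 genes in 8 groups), the highest or lowest library lay further from the rest than Dixon's 95% limit in 6, and chance flags about 5% of groups. Aim2 in KO at 18 h had 276 CPM in replicate 4 and at most 159 CPM in the other 3, and Casp4 had 432 CPM in that library and at most 311 CPM in the others. Casp4 in KO at 0 h had 25.5 CPM in replicate 3 and at most 22.5 CPM in the others. Aim2 in KO at 1 h was highest in replicate 3 with 65.1 CPM, above 58.5 to 59.6 CPM. Naip5 in KO at 5 h was highest in replicate 4 with 29.6 CPM, above 21.6 to 22.6 CPM. Nlrp1b in KO at 1 h was lowest in replicate 4 with 17.1 CPM, below 19.9 to 20.4 CPM. All 6 were KO libraries.

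The change from 0 h differed between genotypes, by the interaction contrast, for Nlrp3 (0.58, adjusted p = 5.7e-04), Casp4 (0.76, adjusted p = 0.0059) and Pycard (-0.54, adjusted p = 0.015) at 18 h. Among the pathway genes named, the interaction at 5 h was 0.84 for Zbp1, 0.45 for P2rx7 and 1.71 for Gbp5. At 18 h it was 2.71 for Gbp5, 1.98 for Il1b, 1.54 for Il1a, 1.11 for Zbp1, 0.97 for Il18 and 0.59 for Cflar, all larger in KO, and -0.72 for Txnip and -0.49 for P2rx7.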

How the results depend on the processing

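Over 150 single log2 fold changes of the 10 genes and their alternatives, 2669 of 2748 were called or not called as before, 45 lost their call and 34 gained one. The sign differed in 47, in 16 of the 150 fold changes, and 0 of these were called. The causes were not tested. Counts of calls under these alternatives, also with 1 library left out, are given without the share of all genes called, which was not computed. A shift of these genes thus cannot be told apart from a shift of all genes. With only the groups compared in the fit, members called between genotypes were 2 at 0 h and 1 at 5 h, members changed in WT at 1 h were 6, interactions at 5 h were 1 member, and pathway genes between genotypes were 11 at 1 h and 4 at 5 h, with 3 interactions at 1 h. Without the 2 libraries that stood apart, an alternative chosen after seeing the data, there were 3 members at 0 h and 5 in WT at 1 h, and 10 pathway genes between genotypes and 2 interactions at 1 h. DESeq2 called 1 member interaction at 5 h and 5 pathway interactions at 1 h. With no filter beyond 1 count, 0 members differed between genotypes at 1 h. With a size limit of 0.58 on the log2 scale, 0, 1 and 4 members differed between genotypes at 1, 5 and 18 h, and 3 and 6 pathway genes at 1 and 5 h. With a limit of 1, 1 member changed in WT at 1 h, 6 in KO at 5 h against 0 h, and from 5 to 18 h 6 in WT and 5 in KO, with 16 pathway genes in WT.

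When 1 library was left out, members between genotypes numbered 0 to 2 at 1 h and 3 to 8 at 5 h, and 5 to 7 at 18 h. Member interactions at 5 h numbered 0 to 1, and pathway interactions 0 to 1 at 1 h and 5 to 8 at 5 h. The 3 calls at 5 h were left without replicate 1 of KO, and the 8 without its replicate 4. Of 112 same-numbered pairs of libraries, within and across genotypes, 29 had a correlation of their deviations over 0.1, with a median of -0.02. The median for pairs with different numbers was 0.004. All 4 same-numbered pairs were over 0.1 in 0 of 28 pairs of groups. Whether libraries with the same number shared an animal or a batch was not tested. A replicate block left 1 member called between genotypes at 1 h, Naip2, with Nlrp3 at an adjusted p of 0.051. DESeq2's size factors moved the median of all genes at 5 h against 0 h from -0.14 to -0.05 in WT and from -0.12 to -0.03 in KO. The fewest counts were behind Nlrc4 and Nlrp1b at 5 h, at 4.30 to 10.7 CPM, and the effect of depth on calls was not tested.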

Other observations

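In WT at 5 h against 0 h, 21 of the 32 tested pathway genes rose and 9 fell, where 30.1% and 40.1% of all genes did, and at 18 h 23 rose and 7 fell, where 32.4% and 34.0% did. All 3 cytokines and all 4 genes listed for LPS sensing in the cytosol rose at both times. The log2 fold change at 5 h was 9.51 for Il1a, 9.04 for Il1b and 8.40 for Gbp5, and smaller for Zbp1 (4.96), Cflar (4.31) and Il18 (3.28). From 5 to 18 h in WT, Il1a and Il1b fell by 3.44 and 3.50 on the log2 scale, as Nlrp3 did by 3.42, whereas Il18 fell by 0.48. Txnip and P2rx7 were below their 0 h level at 5 h, by -0.76 and -1.43.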
